A study of Mus musculus with 16 samples.

Results

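The genes described here are 50 protein-coding genes of nucleolar ribosome biogenesis. They were taken by gene symbol from the table of counts, which lists 24019 genes, and all 50 were found in it. They comprise 3 genes of RNA polymerase I transcription, 4 abundant nucleolar proteins, 7 proteins of the small nucleolar ribonucleoprotein particles (snoRNPs), 15 components of the small subunit processome, 5 factors of late 40S maturation and 16 factors of large subunit assembly. The members were chosen by function and symbol, with earlier results of these data known, so no test is made over the list.

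Ribosomes are built in the nucleolus. RNA polymerase I transcribes the ribosomal DNA into a long precursor, snoRNPs modify it, and the small subunit processome folds and cuts the part that becomes 18S rRNA, while another set of helicases, GTPases and scaffold proteins assembles the large subunit around the other rRNAs. Genes for these factors are classical growth-regulated genes and many are targets of the transcription factor MYC. Acinar cells of the pancreas, which make up most of the tissue, carry large nucleoli and dense rough endoplasmic reticulum because they synthesise digestive enzymes at a high rate.

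Snap-frozen pancreas was profiled from 16 C57BL/6J littermate mice aged 6 to 8 weeks, in 4 groups of 4. Adam17ex/ex mice (Adam17ex here) carry 2 copies of Adam17ex, a hypomorphic form of Adam17, which encodes a protease that sheds membrane proteins, and their wild-type (WT) littermates carry the normal allele. Cerulein mice of either genotype were injected intraperitoneally 7 times, at hourly intervals, with 50 µg/kg of cerulein, a peptide related to cholecystokinin that causes acute pancreatitis, and PBS mice received 50 µl of phosphate-buffered saline on the same schedule. All were culled 1 h after the last injection, so only this early time is covered. The Adam17ex cerulein and Adam17ex PBS groups each held 2 males, the WT cerulein group 1 and the WT PBS group 0, and sex is a term in every test.

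Libraries held 455547 to 1476159 unique molecular identifiers (UMIs), each of which stands for 1 captured poly(A) transcript. Replicates 1 to 3 of the Adam17ex PBS group stood apart, with 455547 to 492878 UMIs against 859573 or more elsewhere, and with 7.84% to 9.02% of UMIs on the ribosomal RNA gene CT010467.1 against 2.02% to 5.04% in the other 13 libraries. For those of the 50 genes named below, cerulein effects in Adam17ex mice are also given without these 3 libraries where that changed the call, turned the sign or moved the value by more than 1.5 times. Adam17 itself lay at 2.40 to 4.09 CPM in Adam17ex cerulein, 2.58 to 6.03 in Adam17ex PBS, 11.1 to 19.3 in WT cerulein and 5.25 to 14.1 in WT PBS libraries. Its counts come from the 3' end and need not cover the altered part of the allele. The pancreas label was matched by the acinar markers, all 13 of which were tested and which summed to 190800 to 242600 CPM in Adam17ex cerulein, 158200 to 278900 in Adam17ex PBS, 132700 to 201000 in WT cerulein and 200200 to 272300 in WT PBS libraries.

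Levels are CPM, the share of a library's UMIs on a gene scaled to a common total and by TMM factors, given per mouse in the order of replicates 1 to 4. Of the 50 genes, 49 passed the filter on low counts and entered the test. Mean levels over all libraries ran from 5.07 CPM for Polr1b to 573 CPM for Ncl, with a median of 25.5. Counting starts at the poly(A) tail, so a level reflects transcript number and not transcript length. Of the 49 genes, 39 reached the filter level of 10.4 CPM in at least 4 of the 8 PBS libraries. The other 10 needed cerulein libraries to pass, so a high value there helped them into the test. These are Fbl, Rrp9, Gar1, Utp4, Utp15, Noc4l, Dhx37, Nob1, Nop2 and Rrp1b, and their cerulein calls below carry this limit.

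After cerulein, transcripts of ribosome biogenesis genes were more abundant in both genotypes. Summed over the 50 genes they came to 2809 to 3370 CPM in Adam17ex cerulein against 1389 to 2450 CPM in Adam17ex PBS libraries, and to 2583 to 3430 CPM in WT cerulein against 1517 to 2098 CPM in WT PBS libraries. Within each genotype the cerulein and PBS libraries did not overlap in this sum. The median gene lay 0.74 to 0.88 above its WT PBS mean on the log2(CPM + 1) scale in Adam17ex cerulein libraries, -0.31 to 0.39 in Adam17ex PBS, 0.74 to 0.94 in WT cerulein and -0.12 to 0.24 in WT PBS libraries. Whole tissue was sequenced, so a change in the share of cells that express a gene and a change in RNA per cell cannot be told apart.

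**Figure D1:**
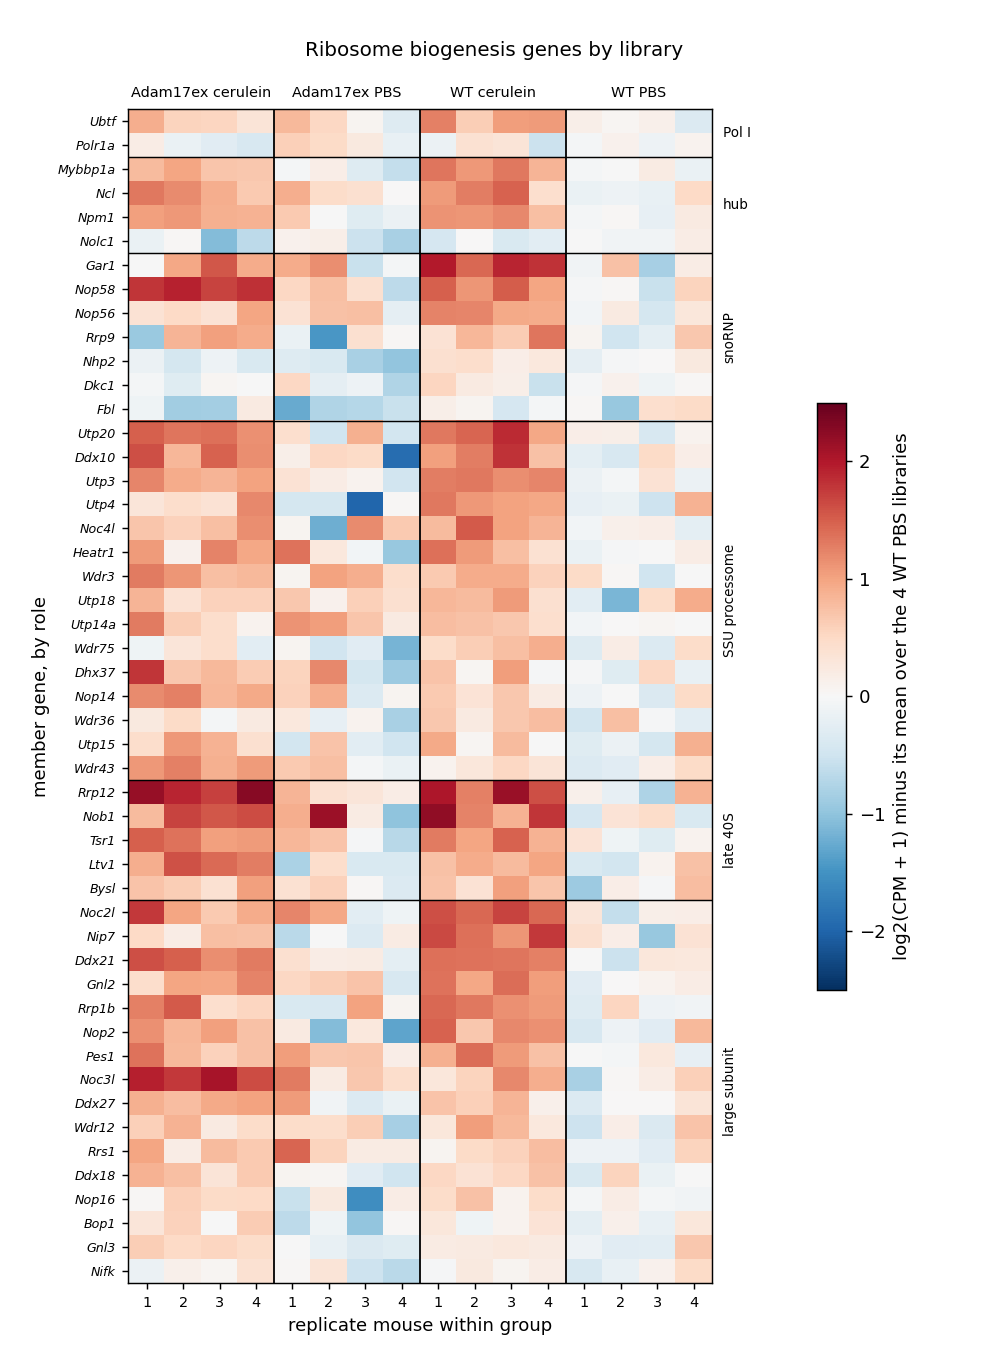
Each row is 1 of the 49 tested genes, grouped by role, and each column 1 mouse, in the order Adam17ex cerulein, Adam17ex PBS, WT cerulein and WT PBS. Colour gives log2(CPM + 1) minus its mean over the 4 WT PBS libraries. The cerulein columns are red for most genes in both genotypes, while Nolc1 and Dkc1 show little or none.

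In edgeR's quasi-likelihood test, 19 of the 49 tested genes were higher with cerulein in Adam17ex mice and 0 lower, where 14.1% of all 8236 tested genes were called higher and 16.2% lower, 30.3% in all. The count at an unadjusted p under 0.05 for a lower value was also 0, and DESeq2 and limma-voom called 0 lower. In WT mice 25 of 49 genes were higher and 0 lower, where 19.8% of all tested genes were called higher and 21.3% lower, 41.1% in all. The median log2 fold change of the 49 genes was 0.74 in Adam17ex mice, against -0.03 over all tested genes, and 0.83 in WT mice, against -0.04. Fold changes were above 0 for 46 of 49 genes in Adam17ex and 47 of 49 in WT mice. All 4 cerulein libraries exceeded all 4 PBS libraries for 16 genes in Adam17ex, where 13.8% of all tested genes did, and for 23 genes in WT mice, where 19.2% did.

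Without the 3 shallow Adam17ex PBS libraries, which leaves 1 mouse in that group and assumes that it varies like the others, 20 of 49 genes were higher in Adam17ex mice, where 6.72% of all genes tested in that setting were, and the median log2 fold change of the 49 was 1.05. Of the 19 called with all libraries, 15 were called again, Bop1, Gnl3, Nop14 and Utp4 were not, and Dhx37, Gnl2, Heatr1, Nob1 and Noc2l were added. With every library thinned to 455547 UMIs, 9 of 42 tested genes were higher in Adam17ex mice, where 8.84% of 5677 tested genes were, and 11 of 42 in WT mice, where 13.5% were. Among the genes called at full depth in Adam17ex mice, Utp20, Rrp12, Noc3l, Wdr43, Tsr1, Ddx10, Ddx27, Bop1, Nop14 and Utp4 missed the threshold after thinning, and in WT mice Rrp12, Utp20, Ltv1, Nip7, Gar1, Gnl2, Pes1, Nob1, Rrp1b, Wdr3, Utp4 and Utp14a did. Nop2, and in WT mice Noc4l, did not pass the filter in that setting. The genes that missed the threshold had log2 fold changes of 0.18 to 1.70 after thinning in Adam17ex mice, lowest for Nop14 at 0.18 ± 0.30 (edgeR adjusted p = 0.724) and Tsr1 at 0.46 ± 0.36 (edgeR adjusted p = 0.402), and of 0.61 to 1.49 in WT mice. Nhp2 was added in Adam17ex mice, at 0.77 ± 0.26 (edgeR adjusted p = 0.0395). Restricted to genes at the filter level in at least 4 PBS libraries, a setting added after the data were seen, 17 of 39 were higher in Adam17ex mice, where 13.2% of tested genes were, and 20 of 39 in WT mice, where 16.5% were.

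Cell type markers moved as well. The 7 ductal markers summed to 424 to 478 CPM in Adam17ex cerulein, 328 to 420.2 in Adam17ex PBS, 977 to 1232 in WT cerulein and 327 to 370.5 in WT PBS libraries. Of the 5 tested, 1 was higher with cerulein in Adam17ex, and 4 were higher and 1 lower in WT mice. In Adam17ex mice cerulein lowered 6 of 8 islet, 3 of 4 tested adipocyte, 3 of 3 B and plasma cell, 4 of 5 monocyte and macrophage, 4 of 5 fibroblast and stellate and 0 of 3 endothelial markers. Without the 3 shallow libraries it lowered 0 of 8 islet, 4 of 5 adipocyte, 2 of 6 B and plasma cell, 0 of 6 monocyte and macrophage, 1 of 7 fibroblast and stellate and 0 of 4 endothelial markers. The islet markers summed to 12940, 22030 and 15590 CPM in those libraries against 5064 CPM in Adam17ex PBS replicate 4. Adam17ex PBS replicate 3 had 1017 CPM of monocyte and macrophage markers against 150.8 to 336.4 CPM in the other 3 mice of its group. In WT mice it lowered 0 of 8 islet, 4 of 4 adipocyte, 3 of 3 B and plasma cell, 1 of 5 monocyte and macrophage, 1 of 5 fibroblast and stellate and 1 of 3 endothelial markers. Of the 13 acinar markers, 1 was higher and 2 lower in Adam17ex, and 1 higher and 6 lower in WT mice. The 10 proliferation markers, of which only Pcna passed the filter, summed to 25.2 to 35.5 CPM in Adam17ex cerulein, 39.0 to 125 in Adam17ex PBS, 29.8 to 42.5 in WT cerulein and 24.5 to 58.8 in WT PBS libraries, and 0 were called. The 6 T cell markers summed to 0 to 3.602 CPM in Adam17ex cerulein, 0 to 48.2 in Adam17ex PBS, 0.904 to 7.75 in WT cerulein and 2.45 to 18.8 in WT PBS libraries. Of the 6, 3 were at 0 UMIs in Adam17ex cerulein, 0 in Adam17ex PBS, 1 in WT cerulein and 0 in WT PBS mice. The 5 neutrophil markers summed to 2.67 to 26.4 CPM in Adam17ex cerulein, 2.58 to 16.1 in Adam17ex PBS, 0 to 14.4 in WT cerulein and 1.05 to 36.5 in WT PBS libraries. The part of these shifts in the results was not tested.

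**Figure D2:**
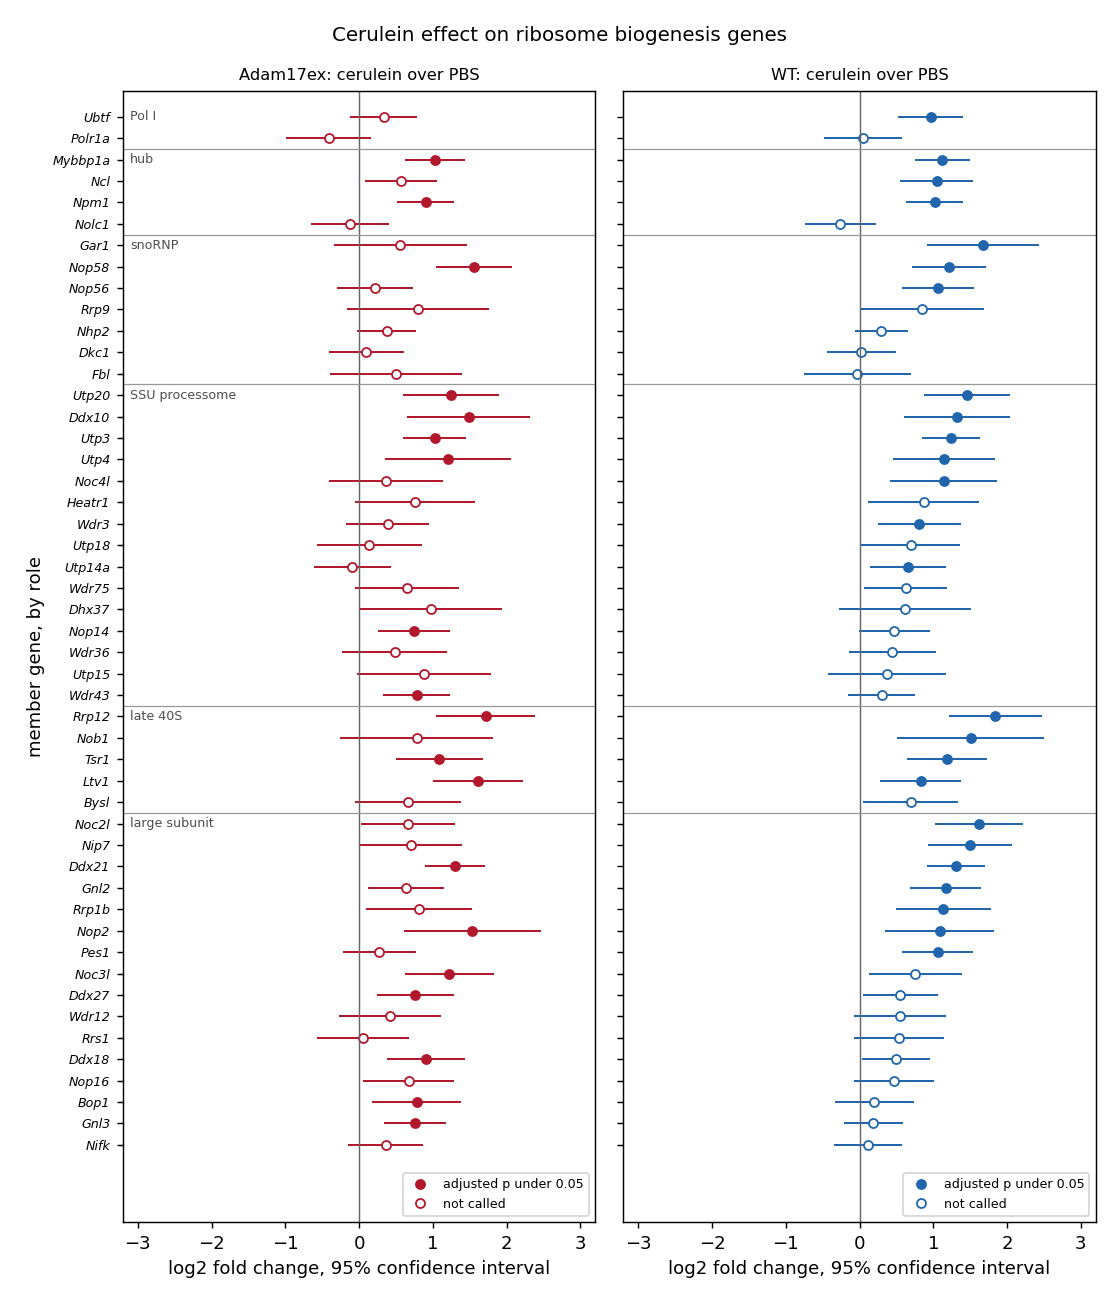
Points give the log2 fold change of cerulein over PBS for each of the 49 tested genes, in Adam17ex mice on the left and WT mice on the right, with 95% confidence intervals. Filled points have an edgeR adjusted p under 0.05. There are 19 filled points in Adam17ex and 25 in WT mice, and all of them lie right of 0.

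Promoter letters were read for 43 of the 50 genes from RefSeq's table for GRCm38.p6, as 250 bases before to 50 bases after the annotated start. Bop1, Fbl, Gnl2, Npm1, Rrp12, Rrs1 and Wdr36 had no entry. RefSeq starts need not equal the gene starts of the count table. The E-box CACGTG, which MYC-MAX and USF factors can bind and which reads the same on both strands, stood in 9 of 43 promoters, or 20.9%, against 13.1% of 5966 tested genes with an entry and 8.1% of 27025 genes in the table. The ETS core CCGGAA, read on either strand, so also as TTCCGG, stood in 21 of 43 or 48.8%, against 34.3% of the tested genes and 16.7% of all genes. The NRF1 motif, GCGCA followed directly by its reverse complement TGCGC, stood in 1 of 43 (2.3%, against 2.7% and 1.1%) and TATAAA on either strand in 2 of 43 (4.7%, against 9.2% and 15.7%). Mean GC content was 59.8% for these genes, 61.5% for the tested genes and 53.6% for all. Motifs were counted separately, a promoter can hold several, and a match is not a binding site.

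The 9 E-boxes are shown in windows of 30 bases, with the E-box in capitals, to show where the motif lies and what surrounds it. All are written 5′ to 3′ on the strand of the gene.
Nop2, chr6:125131811-125131840, plus strand: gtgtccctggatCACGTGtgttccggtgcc
Utp4, chr8:106893643-106893672, plus strand: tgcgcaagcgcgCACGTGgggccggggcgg
Ltv1, chr10:13193092-13193121, minus strand: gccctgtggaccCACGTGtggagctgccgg
Utp20, chr10:88826765-88826794, minus strand: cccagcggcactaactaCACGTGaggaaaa
Pes1, chr11:3963965-3963994, plus strand: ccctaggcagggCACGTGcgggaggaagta
Mybbp1a, chr11:72441347-72441376, plus strand: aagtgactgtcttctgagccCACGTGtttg
Tsr1, chr11:74898092-74898121, plus strand: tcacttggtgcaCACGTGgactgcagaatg
Utp18, chr11:93885769-93885798, minus strand: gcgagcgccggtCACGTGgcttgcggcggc
Wdr43, chr17:71616220-71616249, plus strand: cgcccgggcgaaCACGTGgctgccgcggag
The windows all differed, but some genes shared the bases next to CACGTG, such as gct after it in Utp18 and Wdr43. In Nop2 and Utp18 the E-box lay before the annotated start, and in the other 7 after it. Of these 9 genes, 7 were higher with cerulein in Adam17ex and 7 in WT mice, with a median log2 fold change of 1.09 in either genotype. The 33 tested genes with an entry but no E-box gave 9 higher in Adam17ex (median 0.67) and 15 higher in WT mice (median 0.76). With the ETS core, 9 of 21 genes were higher in Adam17ex and 11 of 21 in WT mice, and without it 7 of 21 in Adam17ex and 11 of 21 in WT mice. No test was made between these groups, and calls of tested genes outside the 50 were not split by motif. Over all tested genes 14.1% were higher in Adam17ex and 19.8% in WT mice. Of the 9 genes with an E-box, Nop2 and Utp4 needed cerulein libraries to pass the filter. After thinning to equal depth, Utp20, Tsr1, Wdr43 and Utp4 missed the threshold in Adam17ex mice. In WT mice Utp20, Ltv1, Pes1 and Utp4 missed it, and Nop2 was not tested in that setting.

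Stretches that end at the base before the annotated start are shown for 3 genes, with ETS cores and E-boxes in capitals. Utp3 and Nop58 were among the strongest calls described below, and Nop2 holds both motifs close together.
Utp3, chr5:88554212-88554461, plus strand: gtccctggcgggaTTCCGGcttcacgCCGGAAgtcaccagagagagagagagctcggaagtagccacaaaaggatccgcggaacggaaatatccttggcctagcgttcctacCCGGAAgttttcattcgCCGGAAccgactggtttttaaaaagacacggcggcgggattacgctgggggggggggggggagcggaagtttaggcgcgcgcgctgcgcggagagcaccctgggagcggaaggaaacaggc
Nop58, chr1:59684876-59685005, plus strand: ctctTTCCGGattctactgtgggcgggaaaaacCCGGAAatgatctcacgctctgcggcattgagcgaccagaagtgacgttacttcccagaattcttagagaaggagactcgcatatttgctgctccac
Nop2, chr6:125131753-125131882, plus strand: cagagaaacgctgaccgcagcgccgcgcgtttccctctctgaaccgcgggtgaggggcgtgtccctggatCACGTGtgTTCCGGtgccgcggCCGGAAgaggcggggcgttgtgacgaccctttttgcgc

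Among the RNA polymerase I genes, Ubtf rose in WT mice, Polr1a was called in neither genotype, and Polr1b was not tested. Ubtf (chromosome 11, 102304560 to 102319742, minus strand; coordinates here and below are GRCm38) encodes the upstream binding factor that keeps ribosomal DNA open for transcription. It had 106, 82.6, 81.6 and 70.2 CPM in Adam17ex cerulein against 98.8, 80.0, 58.3 and 44.4 CPM in Adam17ex PBS libraries, and 135, 86.4, 117 and 118 CPM in WT cerulein against 62.3, 58.1, 60.9 and 44.1 CPM in WT PBS libraries. All WT cerulein mice lay above all WT PBS mice, whereas the Adam17ex groups overlapped. The log2 fold change was 0.33 ± 0.22 (SE) in Adam17ex (edgeR adjusted p = 0.271) and 0.96 ± 0.21 (edgeR adjusted p = 0.000899) in WT mice. Without the 3 shallow libraries the Adam17ex value was 0.89 ± 0.33 (edgeR adjusted p = 0.0753).

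Polr1a (chromosome 6, 71909053 to 71984935, plus strand), the largest subunit of RNA polymerase I, had 25.3, 19.6, 18.0 and 16.4 CPM in Adam17ex cerulein against 33.8, 31.0, 26.1 and 19.2 CPM in Adam17ex PBS libraries, and 19.9, 28.8, 27.9 and 14.9 CPM in WT cerulein against 21.2, 23.8, 19.9 and 23.3 CPM in WT PBS libraries. The groups overlapped in both genotypes. Its log2 fold change was -0.41 ± 0.28 in Adam17ex, with a 95% interval of -0.98 to 0.16, and 0.05 ± 0.25 in WT mice, with an interval of -0.48 to 0.57. The sign in Adam17ex mice rests on the 3 shallow libraries, without which the value was 0.12 ± 0.42 (edgeR adjusted p = 0.887). Polr1b (chromosome 2, 129100995 to 129126594, plus strand), the second-largest subunit, did not pass the filter. It had 24 UMIs in all in Adam17ex cerulein, 9 in Adam17ex PBS, 25 in WT cerulein and 16 in WT PBS libraries, and 0 in Adam17ex PBS replicate 4, where a count of 0 allows up to 2.97 CPM before TMM scaling. At 0 to 13 CPM per library, its level is too low for a comparison.

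Of the 4 abundant nucleolar proteins, Npm1 and Mybbp1a rose in both genotypes, Ncl was called in WT mice and Nolc1 in neither. Ncl (chromosome 1, 86344719 to 86359400, minus strand) encodes nucleolin, an RNA-binding protein that attaches to nascent ribosomal RNA, and was the most abundant of the 50. It had 868, 783, 648 and 542 CPM in Adam17ex cerulein against 650.2, 478, 458 and 346 CPM in Adam17ex PBS libraries, and 722, 837, 959.9 and 461 CPM in WT cerulein against 306, 315, 303 and 486 CPM in WT PBS libraries. Both pairs of groups overlapped by 1 or more mice, in WT mice through cerulein replicate 4 and PBS replicate 4. The log2 fold change was 0.57 ± 0.23 (edgeR adjusted p = 0.0693) in Adam17ex and 1.05 ± 0.24 (edgeR adjusted p = 0.00119) in WT mice. Without the shallow libraries the Adam17ex value was 1.05 ± 0.39 (edgeR adjusted p = 0.0795), and it was called in 8 of 30 alternatives, of which limma-voom gave 0.58 ± 0.22 (limma adjusted p = 0.0471).

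Npm1 (chromosome 11, 33152287 to 33163206, minus strand) encodes nucleophosmin, a chaperone of the granular part of the nucleolus that helps export ribosomal subunits. In Adam17ex mice it had 223, 234, 202 and 202 CPM with cerulein against 172, 108, 88.4 and 99.0 CPM with PBS, and in WT mice 241, 237, 251 and 184 CPM with cerulein against 106, 112, 94.5 and 127 CPM with PBS. The cerulein mice were higher without overlap in both genotypes. The cerulein effect was 0.90 ± 0.19 (edgeR adjusted p = 0.00101) in Adam17ex and 1.02 ± 0.19 (edgeR adjusted p = 0.000133) in WT mice, or 1.87-fold in Adam17ex and 2.02-fold in WT mice. Without the shallow libraries the Adam17ex change was 1.09 ± 0.28 (edgeR adjusted p = 0.0118).

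Mybbp1a (chromosome 11, 72441355 to 72451768, plus strand), the MYB-binding protein 1a, associates with RNA polymerase I and with early pre-ribosomes, and its E-box is shown above. It had 88.6, 102, 82.8 and 81.7 CPM in Adam17ex cerulein against 49.4, 56.8, 40.2 and 33.3 CPM in Adam17ex PBS libraries, and 130.2, 108, 128 and 91.8 CPM in WT cerulein against 49.4, 50.6, 58.8 and 45.3 CPM in WT PBS libraries. Again the cerulein and PBS mice did not overlap within a genotype. Cerulein effects were 1.03 ± 0.20 (edgeR adjusted p = 0.000418) in Adam17ex, or 1.33 ± 0.31 (edgeR adjusted p = 0.0068) without the shallow libraries, and 1.12 ± 0.18 (edgeR adjusted p = 3.17e-05) in WT mice. Nolc1, a chaperone that accompanies snoRNPs through the nucleolus, averaged 48.7 ± 16.2 CPM in Adam17ex cerulein, 55.8 ± 18.2 in Adam17ex PBS, 54.1 ± 7.88 in WT cerulein and 65.03 ± 5.92 in WT PBS libraries (SD, n = 4 each). Its fold change was -0.12 ± 0.25 in Adam17ex, 0.48 ± 0.37 (edgeR adjusted p = 0.431) without the shallow libraries, and -0.26 ± 0.23 in WT mice, with 0 calls in either genotype.

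**Figure D3:**
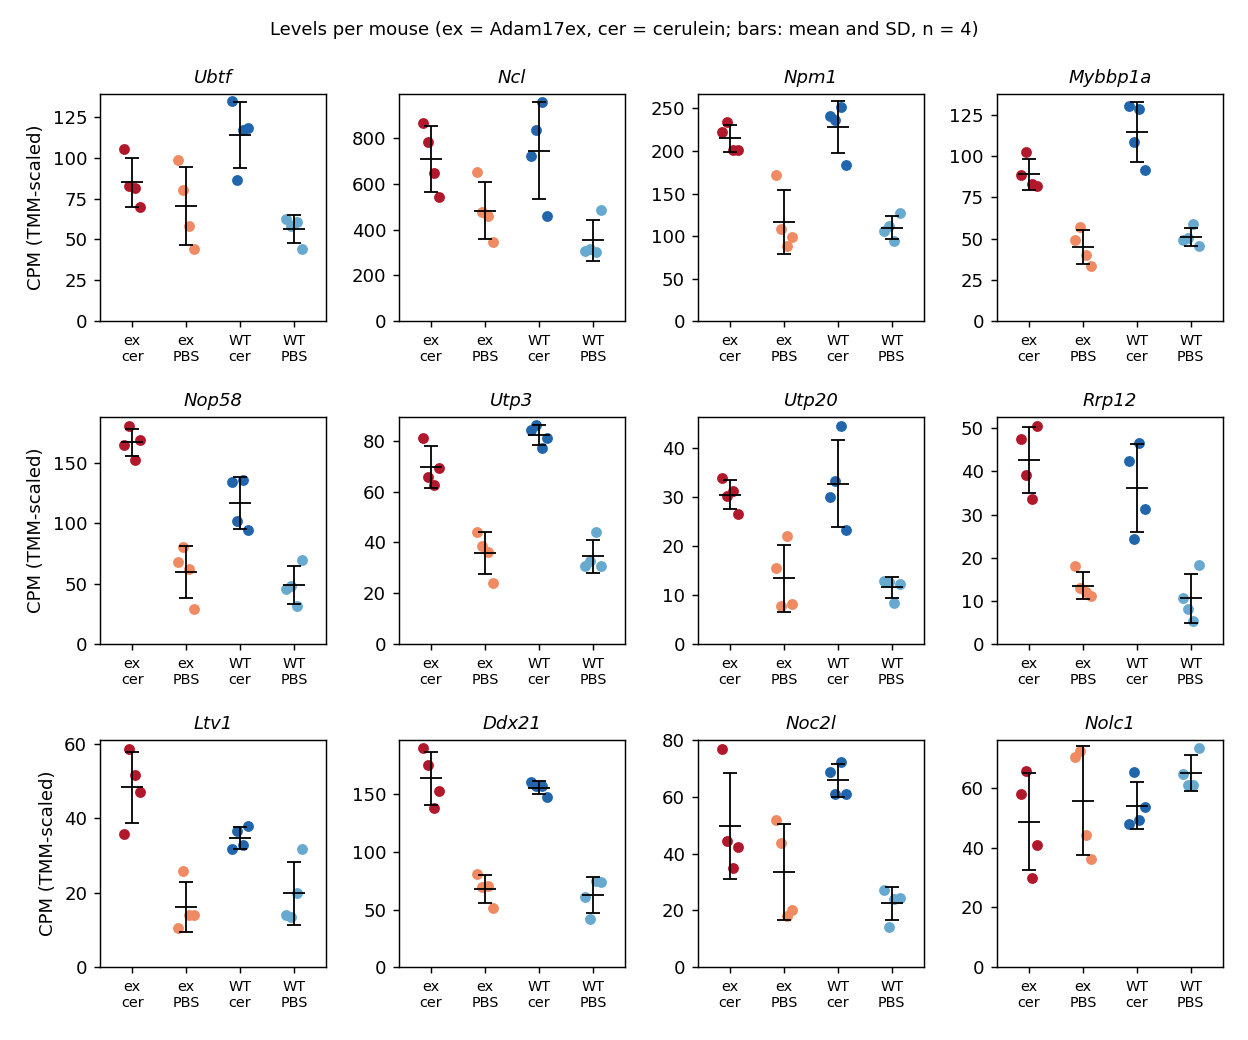
Each point is 1 mouse, as TMM-scaled CPM on a linear axis that starts at 0, for 12 of the genes, with the mean and SD of each group of 4 mice in black. All of the 12 but Nolc1 were called higher with cerulein in WT mice, against 25 of all 49 tested genes. The 12 are therefore not typical of the set. Groups run Adam17ex (ex) cerulein (cer), Adam17ex PBS, WT cerulein and WT PBS. For Npm1, Mybbp1a, Nop58, Utp3, Utp20, Rrp12 and Ddx21 the cerulein mice of each genotype lie above its PBS mice without overlap, and for Nolc1 they do not.

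Among the 7 tested snoRNP proteins, 1 was higher with cerulein in Adam17ex mice, where 14.1% of all tested genes were. In WT mice 3 were higher, where 19.8% of all tested genes were. These 7 are too few to read their shares against the background. Nop58 was the gene called in both genotypes. Nop58 (chromosome 1, 59684971 to 59719044, plus strand) forms with Nop56 the scaffold of box C/D particles, which guide methylation of rRNA, and its promoter stretch with 2 ETS cores is shown above. It had 165, 180.4, 152 and 169 CPM in Adam17ex cerulein against 67.6, 80.0, 62.3 and 29.3 CPM in Adam17ex PBS libraries, and 134, 102, 135 and 94.2 CPM in WT cerulein against 45.8, 47.7, 31.5 and 69.8 CPM in WT PBS libraries. All cerulein mice exceeded all PBS mice of their genotype. On the log2 scale the changes were 1.56 ± 0.25 (edgeR adjusted p = 7.11e-05) in Adam17ex and 1.22 ± 0.24 (edgeR adjusted p = 0.000348) in WT mice. Leaving out the shallow libraries moved the Adam17ex change to 2.46 ± 0.39 (edgeR adjusted p = 0.000275).

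Nop56 averaged 39.3 ± 8.94 CPM in Adam17ex cerulein and 36.0 ± 10.4 in Adam17ex PBS libraries, and 56.4 ± 6.69 CPM in WT cerulein and 26.5 ± 5.95 in WT PBS libraries (SD, n = 4 each). Its log2 fold change was 0.22 ± 0.25 (edgeR adjusted p = 0.545) in Adam17ex, 0.88 ± 0.38 (edgeR adjusted p = 0.132) without the shallow libraries, and 1.06 ± 0.23 (edgeR adjusted p = 0.000866) in WT mice. Fbl (chromosome 7, 28169710 to 28179269, plus strand), the methyltransferase fibrillarin of the same particles, had 12.7, 7.11, 7.20 and 16.4 CPM in Adam17ex cerulein against 5.20, 7.75, 8.04 and 9.09 CPM in Adam17ex PBS libraries, and 15.4, 14.4, 10.0 and 13.2 CPM in WT cerulein against 14.1, 6.70, 18.9 and 19.6 CPM in WT PBS libraries. The groups overlapped in both genotypes, and with 2 to 24 UMIs per library the interval was wide, at -0.39 to 1.39 around 0.50 ± 0.43 in Adam17ex and -0.76 to 0.70 around -0.03 ± 0.35 in WT mice. Rrp9, which joins the U3 particle, had log2 fold changes of 0.80 ± 0.47 in Adam17ex and 0.84 ± 0.40 in WT mice, neither called.

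Box H/ACA particles carry the pseudouridine synthase dyskerin, the product of Dkc1, and the small proteins Nhp2 and Gar1. In Adam17ex mice Gar1 had 13.2 ± 5.75 CPM with cerulein and 9.64 ± 5.48 with PBS (SD, n = 4 each), an effect of 0.56 ± 0.44 (edgeR adjusted p = 0.349), or 0.87 ± 0.66 (edgeR adjusted p = 0.412) without the shallow libraries. It was called in WT mice, with 24.5 ± 4.03 CPM with cerulein and 6.89 ± 3.34 with PBS and a cerulein effect of 1.67 ± 0.37 (edgeR adjusted p = 0.000897). Dkc1 showed 0.10 ± 0.25 in Adam17ex and 0.02 ± 0.23 in WT mice, with 95% intervals of -0.41 to 0.61 in Adam17ex and -0.44 to 0.49 in WT mice. Its Adam17ex value was 0.60 ± 0.38 (edgeR adjusted p = 0.318) without the shallow libraries. Nhp2 is described with the genotype differences.

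The small subunit processome is the large particle in which the 5′ part of the rRNA precursor is folded and cut. Of its 15 tested members, 6 were higher in Adam17ex mice (Utp3, Utp4, Utp20, Ddx10, Nop14 and Wdr43), where 14.1% of all tested genes were. In WT mice 7 were higher (Utp3, Utp4, Utp14a, Utp20, Wdr3, Noc4l and Ddx10), where 19.8% of all tested genes were. Median log2 fold changes were 0.76 in Adam17ex (1.13 without the shallow libraries) and 0.69 in WT mice. Utp3 (chromosome 5, 88554462 to 88556090, plus strand), whose yeast counterpart Sas10 is a core component of the particle, has a single exon. It had 81.2, 65.8, 62.4 and 69.5 CPM in Adam17ex cerulein against 44.2, 38.7, 36.2 and 24.2 CPM in Adam17ex PBS libraries, and 84.1, 86.4, 77.4 and 81.0 CPM in WT cerulein against 30.6, 32.8, 44.1 and 30.6 CPM in WT PBS libraries. Cerulein mice lay above PBS mice without overlap in both genotypes. Log2 fold changes were 1.02 ± 0.21 (edgeR adjusted p = 0.000745) in Adam17ex, or 1.58 ± 0.32 (edgeR adjusted p = 0.00249) without the shallow libraries, and 1.24 ± 0.19 (edgeR adjusted p = 1.95e-05) in WT mice. The stretch before its start, printed above, holds 4 ETS cores.

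Utp20 (chromosome 10, 88746607 to 88826804, minus strand) encodes a very long repeat protein that binds the precursor in the processome. It had 33.8, 30.2, 31.2 and 26.6 CPM in Adam17ex cerulein against 15.6, 7.75, 22.1 and 8.08 CPM in Adam17ex PBS libraries, and 29.9, 33.2, 44.4 and 23.1 CPM in WT cerulein against 12.9, 12.7, 8.40 and 12.2 CPM in WT PBS libraries. There was no overlap between cerulein and PBS in either genotype. Log2 fold changes were 1.24 ± 0.32 (edgeR adjusted p = 0.00485) in Adam17ex, 1.93 ± 0.48 (edgeR adjusted p = 0.0112) without the shallow libraries, and 1.45 ± 0.28 (edgeR adjusted p = 0.000252) in WT mice. Ddx10, an RNA helicase gene, was also called in both, at 1.48 ± 0.40 in Adam17ex and 1.32 ± 0.35 in WT mice. Its Adam17ex change was 3.65 ± 0.68 (edgeR adjusted p = 0.00118) without the shallow libraries, and without Adam17ex PBS replicate 4 it was 0.92 ± 0.35 (edgeR adjusted p = 0.057).

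Other members of this particle were called in 1 genotype. Noc4l, the partner of Nop14, had 0.36 ± 0.37 (edgeR adjusted p = 0.494) in Adam17ex and 1.14 ± 0.35 (edgeR adjusted p = 0.0117) in WT mice. Nop14 had 0.74 ± 0.24 (edgeR adjusted p = 0.0197) in Adam17ex and 0.47 ± 0.23 (edgeR adjusted p = 0.112) in WT mice. Utp14a, a cofactor of the helicase Dhx37, showed -0.09 ± 0.25 (edgeR adjusted p = 0.81) in Adam17ex, 0.47 ± 0.38 (edgeR adjusted p = 0.451) without the shallow libraries, and 0.66 ± 0.25 (edgeR adjusted p = 0.0386) in WT mice. The WT call was lost without WT PBS replicate 1, 2 or 4 or WT cerulein replicate 1, 2 or 3, with edgeR adjusted p of 0.0534 to 0.0779. Nop14 was no longer called in Adam17ex mice without the shallow libraries, at 0.98 ± 0.34 (edgeR adjusted p = 0.0579), nor when replicate 2 of Adam17ex cerulein, or replicate 3 or 4 of Adam17ex PBS, was left out, at adjusted p of 0.0514 to 0.0682. Utp4, called in both genotypes, had 1.21 ± 0.41 (edgeR adjusted p = 0.0301) in Adam17ex and 1.15 ± 0.33 (edgeR adjusted p = 0.00831) in WT mice. Its Adam17ex call ended without the shallow libraries, at 0.75 ± 0.55 (edgeR adjusted p = 0.402), and when Adam17ex PBS replicate 2, Adam17ex PBS replicate 3 or Adam17ex cerulein replicate 4 was dropped, at adjusted p of 0.0547 to 0.129. Wdr3 had 0.39 ± 0.27 (edgeR adjusted p = 0.296) in Adam17ex, 0.65 ± 0.41 (edgeR adjusted p = 0.313) without the shallow libraries, and 0.81 ± 0.27 (edgeR adjusted p = 0.0186) in WT mice. Its WT call ended without WT PBS replicate 3, at 0.71 ± 0.28 (edgeR adjusted p = 0.0552). Utp15, Utp18, Wdr36, Wdr75, Heatr1 and Dhx37 were called in neither, with log2 fold changes of 0.14 to 0.97 in Adam17ex and 0.37 to 0.87 in WT mice. Of these, Heatr1 at 1.94 ± 0.62 (edgeR adjusted p = 0.0409) and Dhx37 at 2.27 ± 0.74 (edgeR adjusted p = 0.0459) were called in Adam17ex mice without the shallow libraries, where the other 4 had 0.26 to 1.32. An effect called in only 1 genotype was not shown to differ between genotypes, as the interaction test below states.

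Factors of late 40S maturation act on the small subunit as it leaves the nucleolus. Of 5 tested, 3 were higher in Adam17ex and 4 in WT mice, where 14.1% and 19.8% of all tested genes were. These 5 are too few to read their shares against the background. Median log2 fold changes were 1.09 in Adam17ex (2.00 without the shallow libraries) and 1.19 in WT mice. Rrp12, Ltv1 and Tsr1 were called in both genotypes. Rrp12 (chromosome 19, 41862851 to 41896173, minus strand), a repeat protein needed for export of pre-ribosomes in yeast, had the largest log2 fold change among the 49 tested genes in each genotype with all libraries. Ddx10, Nob1, Nop2, Nop58 and Dhx37 exceeded it in Adam17ex mice when the shallow libraries were left out. Tsr1 then lay level with it, at 2.006 against 2.005. It had 47.5, 39.1, 33.6 and 50.4 CPM in Adam17ex cerulein against 18.2, 12.9, 12.1 and 11.1 CPM in Adam17ex PBS libraries, and 42.5, 24.4, 46.6 and 31.4 CPM in WT cerulein against 10.6, 8.19, 5.25 and 18.4 CPM in WT PBS libraries. Cerulein and PBS mice were separated in both genotypes. The log2 fold changes of 1.72 ± 0.32 (edgeR adjusted p = 0.000358) in Adam17ex, 2.00 ± 0.52 (edgeR adjusted p = 0.0137) without the shallow libraries, and 1.84 ± 0.30 (edgeR adjusted p = 4.43e-05) in WT mice correspond, with all libraries, to 3.29-fold in Adam17ex and 3.58-fold in WT mice.

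Ltv1 (chromosome 10, 13178140 to 13193168, minus strand), an adaptor that places the ribosomal protein Rps3 in yeast and is removed before the 40S subunit is active, had 35.9, 58.6, 51.6 and 47.0 CPM in Adam17ex cerulein against 10.4, 25.8, 14.1 and 14.1 CPM in Adam17ex PBS libraries, and 31.7, 36.5, 33.0 and 38.0 CPM in WT cerulein against 14.1, 13.4, 19.9 and 31.9 CPM in WT PBS libraries. The Adam17ex groups were separated, and the WT groups overlapped at WT PBS replicate 4. Log2 fold changes were 1.61 ± 0.30 (edgeR adjusted p = 0.000289) in Adam17ex, 1.69 ± 0.46 (edgeR adjusted p = 0.0178) without the shallow libraries, and 0.83 ± 0.27 (edgeR adjusted p = 0.0149) in WT mice, the last falling to 0.69 ± 0.28 (edgeR adjusted p = 0.055) without WT PBS replicate 2. Tsr1, a GTPase-like factor, showed 1.09 ± 0.29 (edgeR adjusted p = 0.00601) in Adam17ex, 2.01 ± 0.43 (edgeR adjusted p = 0.0037) without the shallow libraries, and 1.19 ± 0.26 (edgeR adjusted p = 0.000941) in WT mice. Nob1, the endonuclease that makes the 3' end of 18S rRNA, was at 0.78 ± 0.50 (edgeR adjusted p = 0.247) in Adam17ex, 2.61 ± 0.81 (edgeR adjusted p = 0.0368) without the shallow libraries, and 1.505 ± 0.479 (edgeR adjusted p = 0.0146) in WT mice. Bysl had 0.66 ± 0.35 in Adam17ex, 1.27 ± 0.55 (edgeR adjusted p = 0.13) without the shallow libraries, and 0.69 ± 0.31 in WT mice, not called.

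Among the 16 factors of large subunit assembly, 7 were higher in Adam17ex mice (Ddx21, Nop2, Noc3l, Ddx18, Gnl3, Ddx27 and Bop1), where 14.1% of all tested genes were. In WT mice 7 were higher (Ddx21, Noc2l, Nip7, Gnl2, Rrp1b, Nop2 and Pes1), where 19.8% of all tested genes were. All 16 fold changes were above 0 in both genotypes, with medians of 0.73 in Adam17ex (1.00 without the shallow libraries) and 0.65 in WT mice. Ddx21 (chromosome 10, 62580251 to 62602281, minus strand), an RNA helicase that binds snoRNAs and ribosomal DNA, had 189.9, 175, 138 and 153 CPM in Adam17ex cerulein against 80.6, 69.7, 70.3 and 51.5 CPM in Adam17ex PBS libraries, and 161, 157, 157 and 148 CPM in WT cerulein against 61.1, 41.7, 74.5 and 73.5 CPM in WT PBS libraries. Every cerulein mouse lay above every PBS mouse. Log2 fold changes were 1.30 ± 0.20 (edgeR adjusted p = 4.09e-05) in Adam17ex and 1.31 ± 0.19 (edgeR adjusted p = 1.10e-05) in WT mice, the smallest p of the 49 genes in both. Without the shallow libraries the Adam17ex change was 1.70 ± 0.33 (edgeR adjusted p = 0.00192).

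Noc2l (chromosome 4, 156235919 to 156247616, plus strand), a nucleolar complex protein that travels with the pre-60S particle, had 77.0, 44.4, 34.8 and 42.2 CPM in Adam17ex cerulein against 52.0, 43.9, 18.1 and 20.2 CPM in Adam17ex PBS libraries, and 68.7, 60.9, 72.3 and 61.2 CPM in WT cerulein against 27.0, 14.2, 24.1 and 24.5 CPM in WT PBS libraries. WT groups were separated, and Adam17ex PBS replicates 1 and 2 reached into the cerulein range. Its log2 fold change was 0.67 ± 0.31 (edgeR adjusted p = 0.105) in Adam17ex, 1.41 ± 0.43 (edgeR adjusted p = 0.0332) without the shallow libraries, and 1.62 ± 0.29 (edgeR adjusted p = 0.00011) in WT mice. Leaving out Adam17ex PBS replicate 1 alone gave 1.06 ± 0.31 (edgeR adjusted p = 0.0143). Nop2, a methyltransferase of the large rRNA whose promoter is shown above, was called in both genotypes at 1.53 ± 0.45 (edgeR adjusted p = 0.0124) in Adam17ex, 2.58 ± 0.78 (edgeR adjusted p = 0.0328) without the shallow libraries, and 1.09 ± 0.36 (edgeR adjusted p = 0.0178) in WT mice. Its counts were 1 to 4 UMIs in Adam17ex PBS libraries, and the Adam17ex call ended when replicate 4 of Adam17ex PBS was left out, at 1.21 ± 0.49 (edgeR adjusted p = 0.0746), or in WT mice without WT PBS replicate 1 or WT cerulein replicate 3, at adjusted p of 0.0506 and 0.0511.

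The 3 proteins of the PeBoW complex, which is needed to mature the 5.8S and 28S rRNAs, were not called together. Pes1 had 0.27 ± 0.24 (edgeR adjusted p = 0.407) in Adam17ex, 0.89 ± 0.35 (edgeR adjusted p = 0.0979) without the shallow libraries, and 1.06 ± 0.23 (edgeR adjusted p = 0.000803) in WT mice. Bop1 had 0.78 ± 0.29 (edgeR adjusted p = 0.045) in Adam17ex and 0.20 ± 0.26 (edgeR adjusted p = 0.569) in WT mice. Wdr12 had 0.42 ± 0.33 in Adam17ex, 1.54 ± 0.53 (edgeR adjusted p = 0.0581) without the shallow libraries, and 0.55 ± 0.30 in WT mice, not called. Bop1 was no longer called when any 1 of these was left out: Adam17ex PBS replicate 1, 2 or 3, Adam17ex cerulein replicate 2 or 4, or WT cerulein replicate 4, with adjusted p of 0.0511 to 0.115. Without the shallow libraries it was at 0.44 ± 0.41 (edgeR adjusted p = 0.52). Among the nucleolar GTPases, Gnl3 (nucleostemin) rose in Adam17ex mice, with 102 ± 5.03 CPM with cerulein and 60.8 ± 7.09 with PBS (SD, n = 4 each), an effect of 0.76 ± 0.20 (edgeR adjusted p = 0.00687). Its WT value was 0.19 ± 0.19 (edgeR adjusted p = 0.466). The Adam17ex call ended without the shallow libraries, at 0.87 ± 0.34 (edgeR adjusted p = 0.0946). Gnl2 had 0.63 ± 0.25 (edgeR adjusted p = 0.0575) in Adam17ex, 1.35 ± 0.40 (edgeR adjusted p = 0.0278) without the shallow libraries, and rose in WT mice by 1.17 ± 0.23 (edgeR adjusted p = 0.000322). The helicase gene Ddx27 had 0.76 ± 0.25 (edgeR adjusted p = 0.0261) in Adam17ex and 0.55 ± 0.24 (edgeR adjusted p = 0.0728) in WT mice. The Adam17ex call of Ddx27 ended when Adam17ex cerulein replicate 4 or any 1 of Adam17ex PBS replicates 2 to 4 was dropped, at adjusted p of 0.0528 to 0.0822. Ddx18, a helicase gene with near-identical copies, was at 0.91 ± 0.25 (edgeR adjusted p = 0.00948) in Adam17ex and 0.49 ± 0.23 (edgeR adjusted p = 0.0843) in WT mice. Rrp1b, a nucleolar protein, was at 0.81 ± 0.35 (edgeR adjusted p = 0.0804) in Adam17ex and 1.14 ± 0.31 (edgeR adjusted p = 0.00551) in WT mice. Rrs1, Nifk and Nop16 were called in neither, at 0.05 to 0.67 in Adam17ex, 0.20 to 0.89 without the shallow libraries, and 0.11 to 0.53 in WT mice.

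Across the genotypes, 12 genes were called in both, 7 in Adam17ex mice alone, 13 in WT mice alone and 17 in neither. The 12 shared genes are 63.2% of those called in Adam17ex and 48.0% of those called in WT mice. Over all tested genes, 743 were called higher in both, which is 63.9% of those called higher in Adam17ex and 45.6% of those in WT mice. The shares of these genes are near that background. The test of the difference itself, the interaction of genotype and cerulein, called 0 of 49 genes in edgeR, where 3.75% of all tested genes were called higher and 2.27% lower, 6.02% in all, and DESeq2 and limma-voom also called 0. At an unadjusted p under 0.05 there were 4, named here because of that count, Nop56, Utp14a, Pes1 and Noc2l, with the smallest adjusted p for Nop56 at -0.85 ± 0.35 (edgeR adjusted p = 0.152). In these 4 the interaction was -0.24 to -0.20 without the shallow libraries. The median interaction was -0.05 with all libraries and 0.43 without the shallow ones, and no member was called in that setting either. The cerulein effects of the 2 genotypes were therefore not shown to differ for any of these genes, nor shown to be equal, since intervals such as -0.67 to 0.43 for Npm1 were wide.

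Between genotypes, few of the genes differed under cerulein. In edgeR's test 2 of 49 were higher and 2 lower in Adam17ex cerulein than in WT cerulein mice, where 5.85% of all tested genes were called higher and 3.85% lower, 9.7% in all. All 4 Adam17ex cerulein libraries exceeded all 4 WT cerulein libraries for 5 genes (Gnl3, Noc3l, Nop14, Nop58 and Wdr43) and lay below them for 3 (Nhp2, Nip7 and Wdr75), where 9.64% and 7.92% of all tested genes did. These shares are close to the background, and the median log2 fold change of the 49 genes was -0.12, against 0.01 over all tested genes. Thinned to equal depth, 0 were called in either direction, and the difference of Nhp2 moved to -0.12 ± 0.24 (edgeR adjusted p = 0.876).

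Noc3l (chromosome 19, 38788128 to 38819237, minus strand), the partner of Noc2l in the pre-60S complex, had 45.4, 39.99, 49.2 and 36.1 CPM in Adam17ex cerulein against 13.6, 16.6, 26.5 and 21.5 CPM in WT cerulein libraries, and 28.6, 12.9, 18.1 and 15.2 CPM in Adam17ex PBS against 5.88, 11.2, 12.6 and 17.1 CPM in WT PBS libraries. Every Adam17ex cerulein mouse lay above every WT cerulein mouse, while the PBS groups overlapped. The genotype difference was 1.07 ± 0.26 (edgeR adjusted p = 0.00873) under cerulein and 0.60 ± 0.36 (edgeR adjusted p = 0.425) under PBS, where it was 0.37 ± 0.49 (edgeR adjusted p = 0.892) without the shallow libraries. Without WT cerulein replicate 1 the cerulein difference was 0.78 ± 0.29 (edgeR adjusted p = 0.139). Noc3l also rose with cerulein in Adam17ex mice, by 1.22 ± 0.29 (edgeR adjusted p = 0.00308), or 1.55 ± 0.46 (edgeR adjusted p = 0.0283) without the shallow libraries, while the WT value was 0.76 ± 0.30 (edgeR adjusted p = 0.0505) and was called in 14 of 30 alternatives.

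Wdr43 (chromosome 17, 71615895 to 71659031, plus strand), a processome component that promotes transcription of the precursor, had 151, 171, 131 and 149 CPM in Adam17ex cerulein against 75.1, 85.3, 101 and 88.5 CPM in WT cerulein libraries, and 112, 119, 68.3 and 62.6 CPM in Adam17ex PBS against 55.2, 57.3, 78.7 and 98.0 CPM in WT PBS libraries. The cerulein groups did not overlap and the PBS groups did. Its genotype difference was 0.80 ± 0.21 (edgeR adjusted p = 0.0178) under cerulein and 0.32 ± 0.24 (edgeR adjusted p = 0.556) under PBS, or -0.21 ± 0.31 (edgeR adjusted p = 0.908) there without the shallow libraries. Under cerulein it was 0.68 ± 0.25 (edgeR adjusted p = 0.139) without WT cerulein replicate 1, and 0.72 ± 0.22 (edgeR adjusted p = 0.0579) without Adam17ex cerulein replicate 2. The cerulein effect was 0.78 ± 0.22 (edgeR adjusted p = 0.00983) in Adam17ex, 1.33 ± 0.33 (edgeR adjusted p = 0.011) without the shallow libraries, and 0.30 ± 0.22 (edgeR adjusted p = 0.287) in WT mice.

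Nip7 (chromosome 8, 107056877 to 107060931, plus strand), a small RNA-binding protein of 60S assembly, was lower in Adam17ex cerulein libraries, with 19.0, 15.1, 22.8 and 22.5 CPM against 43.4, 35.4, 29.4 and 47.1 CPM in WT cerulein libraries. With PBS it had 7.80, 12.9, 10.1 and 15.2 CPM in Adam17ex against 17.6, 14.9, 6.30 and 17.1 CPM in WT libraries, so the genotypes were separated under cerulein and overlapped under PBS. The genotype difference was -0.95 ± 0.25 (edgeR adjusted p = 0.0188) under cerulein and -0.16 ± 0.37 (edgeR adjusted p = 0.887) under PBS, or 0.12 ± 0.48 (edgeR adjusted p = 0.972) there without the shallow libraries. Under cerulein it was -0.79 ± 0.31 (edgeR adjusted p = 0.174) without WT cerulein replicate 1, and leaving out WT cerulein replicate 4 or Adam17ex cerulein replicate 1 or 2 also ended the call, with adjusted p of 0.0548 to 0.0629. The cerulein effect was 0.71 ± 0.34 (edgeR adjusted p = 0.116) in Adam17ex, 0.38 ± 0.48 (edgeR adjusted p = 0.65) without the shallow libraries, and 1.49 ± 0.27 (edgeR adjusted p = 0.000145) in WT mice.

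Nhp2 (chromosome 11, 51619735 to 51623714, plus strand), the H/ACA protein introduced above, was lower in Adam17ex mice under cerulein, with 73.8, 59.5, 74.4 and 62.0 CPM against 108, 111, 91.7 and 98.4 CPM in WT libraries. Under PBS it had 65.02, 62.0, 46.2 and 40.4 CPM in Adam17ex against 69.3, 80.4, 81.9 and 96.8 CPM in WT libraries. The genotypes did not overlap under either treatment. The difference was -0.62 ± 0.17 (edgeR adjusted p = 0.0244) under cerulein and -0.70 ± 0.21 (edgeR adjusted p = 0.081) under PBS. Under cerulein the call ended without Adam17ex cerulein replicate 2 or 4 or WT cerulein replicate 1 or 2, with adjusted p of 0.0652 to 0.103, and with no filter on low counts, at -0.63 ± 0.22 (edgeR adjusted p = 0.101). Cerulein itself gave 0.38 ± 0.19 in Adam17ex, 0.72 ± 0.30 (edgeR adjusted p = 0.116) without the shallow libraries, and 0.30 ± 0.17 in WT mice, neither called.

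Under PBS, 0 of 49 genes were called between genotypes in edgeR, where 0.631% of all tested genes were higher and 0.729% lower in Adam17ex, 1.36% in all, and limma-voom called 0. DESeq2 and the fit without sex each called 1 lower, Nhp2. The Adam17ex PBS libraries all exceeded the WT PBS libraries for 1 gene, Utp14a, and lay below them for 1, Nhp2, where 4.16% and 6.24% of all tested genes did. At an unadjusted p under 0.05 there were 4, Nhp2, Utp14a, Wdr3 and Pes1. The median log2 fold change was 0.05 and moved to -0.35 without the shallow libraries, so its direction depends on them.

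**Figure D4:**
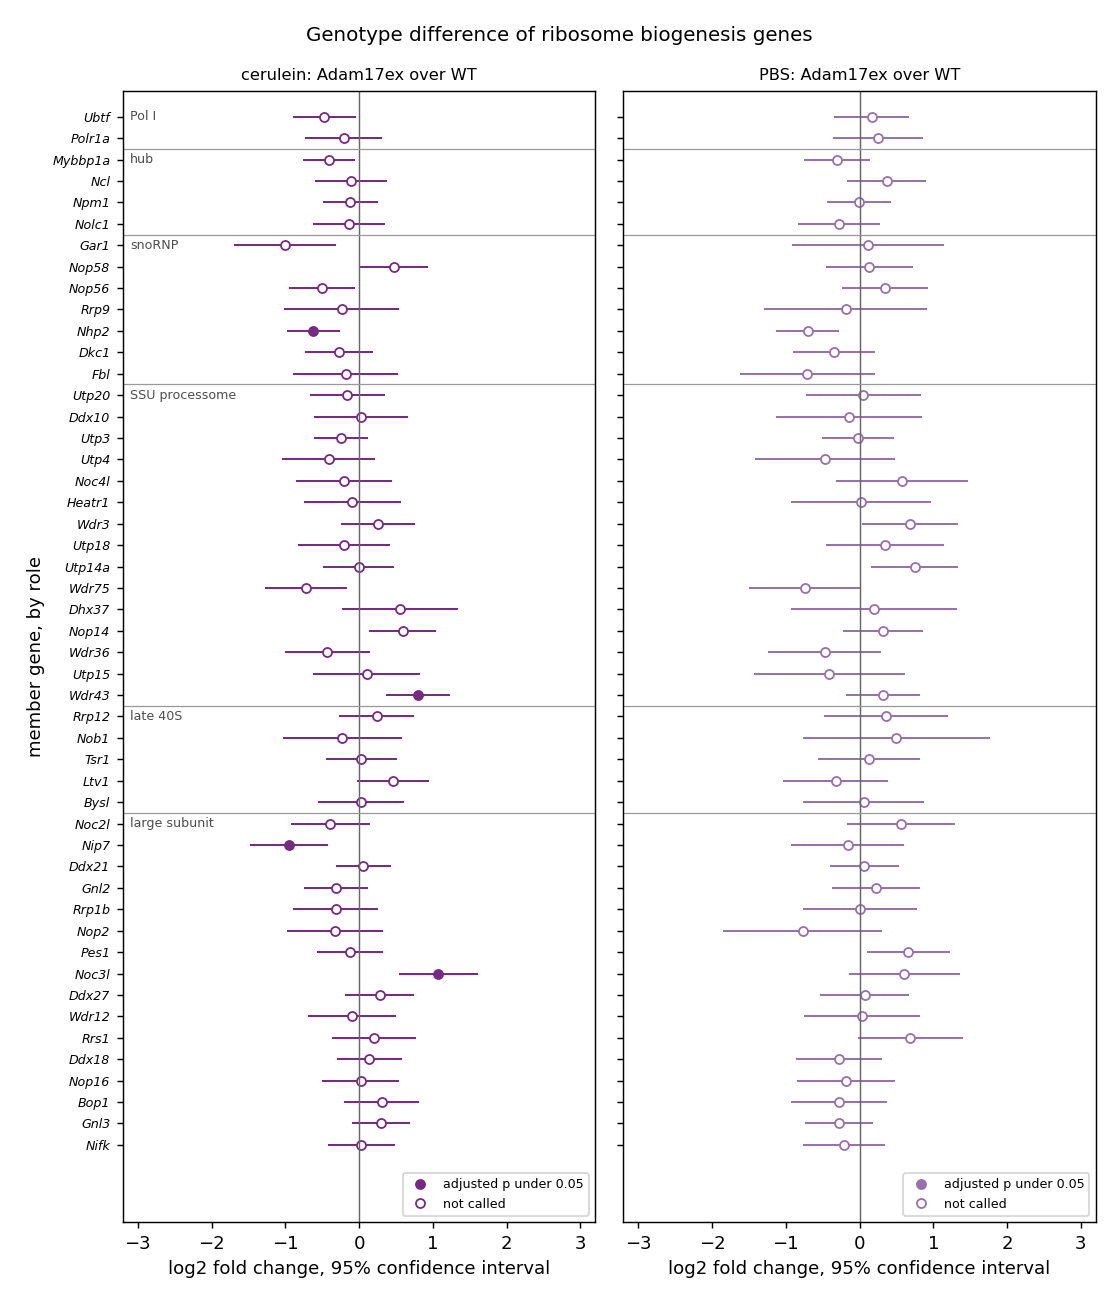
Points give the log2 fold change of Adam17ex over WT for the 49 tested genes with 95% confidence intervals, under cerulein on the left and under PBS on the right. Filled points have an edgeR adjusted p under 0.05. Under cerulein Noc3l and Wdr43 are filled right of 0 and Nip7 and Nhp2 left of it, and under PBS no point is filled.

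Other genes of the pathway, taken from lists by function, gave the following counts. Beside them, 14.1% of all tested genes were called higher and 16.2% lower with cerulein in Adam17ex mice. In WT mice 19.8% were called higher and 21.3% lower. Of 41 tested large subunit factors outside the 50, 15 were higher and 1 lower with cerulein in Adam17ex (median 0.50), and 23 higher and 0 lower in WT mice (median 0.75). Eif6, which keeps the late 60S subunit from joining the 40S, and Sbds, which helps to remove it, rose in WT mice by 1.55 ± 0.18 (edgeR adjusted p = 3.83e-07) and 2.21 ± 0.25 (edgeR adjusted p = 3.72e-07). Lyar rose in Adam17ex mice by 1.38 ± 0.19 (edgeR adjusted p = 1.33e-05) and the GTPase gene Gtpbp4 by 1.09 ± 0.19 (edgeR adjusted p = 0.00015), and Gtpbp4 in WT mice by 1.27 ± 0.18 (edgeR adjusted p = 6.95e-06). Grwd1, a chaperone gene of ribosome assembly, was also called in Adam17ex mice, with 63 UMIs over the 4 cerulein libraries and 3 over the 4 PBS libraries. Those PBS libraries held fewer UMIs in all, and so few counts of Grwd1 leave the size of its change uncertain. Leaving out the shallow libraries, Lyar was at 1.33 ± 0.28 and Gtpbp4 at 1.63 ± 0.28 in Adam17ex mice.

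Of 34 tested small subunit factors outside the 50, 3 were higher in Adam17ex mice (median 0.29), where 14.1% of all tested genes were. Fold changes were above 0 for 27 of the 34 in Adam17ex mice. In WT mice 13 were higher (median 0.56), where 19.8% of all tested genes were. Pno1, which holds the 3' end of 18S rRNA, and Nop9 were called in both, Pno1 at 1.14 ± 0.23 (edgeR adjusted p = 0.000598) in Adam17ex and 1.18 ± 0.21 (edgeR adjusted p = 0.000104) in WT mice and Nop9 at 0.96 ± 0.37 (edgeR adjusted p = 0.0492) in Adam17ex and 1.75 ± 0.32 (edgeR adjusted p = 0.000131) in WT mice. Utp23 rose in WT mice by 1.33 ± 0.23 (edgeR adjusted p = 6.35e-05) and Wdr46 in Adam17ex mice by 1.02 ± 0.35 (edgeR adjusted p = 0.0285). For Utp23 the interaction passed, at -1.13 ± 0.33 (edgeR adjusted p = 0.0412), as it did for Sbds at -1.24 ± 0.37 (edgeR adjusted p = 0.04995) and the helicase gene Ddx24 at -0.85 ± 0.25 (edgeR adjusted p = 0.0468). With the shallow libraries left out, 3 of 37 small subunit factors were higher in Adam17ex mice. Pno1 was again among them (edgeR adjusted p = 0.0071), while Nop9, at 0.79 ± 0.56 (edgeR adjusted p = 0.383), and Wdr46, at 0.94 ± 0.51 (edgeR adjusted p = 0.239), were not. In that setting the interaction was at -0.96 ± 0.42 (edgeR adjusted p = 0.289) for Utp23, -0.53 ± 0.32 (edgeR adjusted p = 0.471) for Ddx24 and -1.80 ± 0.39 (edgeR adjusted p = 0.022) for Sbds. Between genotypes under cerulein, Rrp7a was lower in Adam17ex, at -1.29 ± 0.28 (edgeR adjusted p = 0.00385), as was Eif6, at -0.66 ± 0.17 (edgeR adjusted p = 0.0127).

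Of 10 other RNA polymerase I genes, 1 was higher in Adam17ex mice, Twistnb at 0.73 ± 0.23 (edgeR adjusted p = 0.018), and 3 in WT mice, Polr1c at 1.72 ± 0.34 (edgeR adjusted p = 0.000283), the terminator Ttf1 at 1.42 ± 0.32 (edgeR adjusted p = 0.000954) and Cd3eap at 0.68 ± 0.26 (edgeR adjusted p = 0.0421). Of 9 genes of snoRNP assembly, 0 were higher in Adam17ex and 1 in WT mice, Nufip1 at 1.86 ± 0.36 (edgeR adjusted p = 0.000255). Of 13 genes of rRNA trimming and the exosome, 5 were higher in Adam17ex and 4 in WT mice, among them the exonuclease gene Xrn2 at 0.83 ± 0.20 (edgeR adjusted p = 0.00327) in Adam17ex and 0.83 ± 0.18 (edgeR adjusted p = 0.000839) in WT mice. Of 11 host genes of snoRNAs, 3 were higher in Adam17ex and 4 in WT mice, with Snhg1 at 1.64 ± 0.33 (edgeR adjusted p = 0.000776) in Adam17ex and 1.56 ± 0.29 (edgeR adjusted p = 0.000168) in WT mice, and Zfas1 at 1.27 ± 0.33 (edgeR adjusted p = 0.00547) in Adam17ex and 1.61 ± 0.30 (edgeR adjusted p = 0.000174) in WT mice. When the shallow libraries were dropped, fewer genes of these lists together were called higher in Adam17ex mice, as over all tested genes. Xrn2 was then at 1.19 ± 0.31, Zfas1 at 1.91 ± 0.52, Snhg1 at 1.34 ± 0.50 and Twistnb at 0.87 ± 0.35 in Adam17ex mice. The Adam17ex calls of Snhg1 and Twistnb were not kept. The smaller lists hold too few genes to read their shares against the background.

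Myc, whose product activates many of these genes, was not called. It had 12.7, 6.22, 15.6 and 17.0 CPM in Adam17ex cerulein against 18.2, 5.16, 10.1 and 7.07 CPM in Adam17ex PBS libraries, and 7.24, 16.6, 6.45 and 16.5 CPM in WT cerulein against 15.3, 20.9, 9.45 and 13.5 CPM in WT PBS libraries. The groups overlapped in both genotypes, with log2 fold changes of 0.43 ± 0.47 (edgeR adjusted p = 0.51) in Adam17ex and -0.35 ± 0.39 (edgeR adjusted p = 0.503) in WT mice. Of the 6 tested genes of the Myc family, 0 were higher in either genotype, 2 were lower in Adam17ex and 3 lower in WT mice. Over all tested genes 16.2% were lower in Adam17ex and 21.3% in WT mice. Of the MYC antagonist genes in the list, Mxd1, Mxd3 and Mnt were not called or not tested, and Mxi1 and Mxd4 fell. Decreases on the log2 scale were 1.49 ± 0.42 (edgeR adjusted p = 0.0101) in Adam17ex and 1.70 ± 0.38 (edgeR adjusted p = 0.00105) in WT mice for Mxi1. For Mxd4 they were 0.69 ± 0.20 (edgeR adjusted p = 0.0103) in Adam17ex and 0.50 ± 0.20 (edgeR adjusted p = 0.0456) in WT mice. With the shallow libraries dropped, neither was called in Adam17ex mice, at -1.41 ± 0.65 (edgeR adjusted p = 0.157) for Mxi1 and -0.19 ± 0.30 (edgeR adjusted p = 0.718) for Mxd4, and Mxd4 was not called in WT mice, at -0.46 ± 0.18 (edgeR adjusted p = 0.0543). Mlx fell in WT mice, at -0.96 ± 0.29 (edgeR adjusted p = 0.00966).

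**Figure D5:**
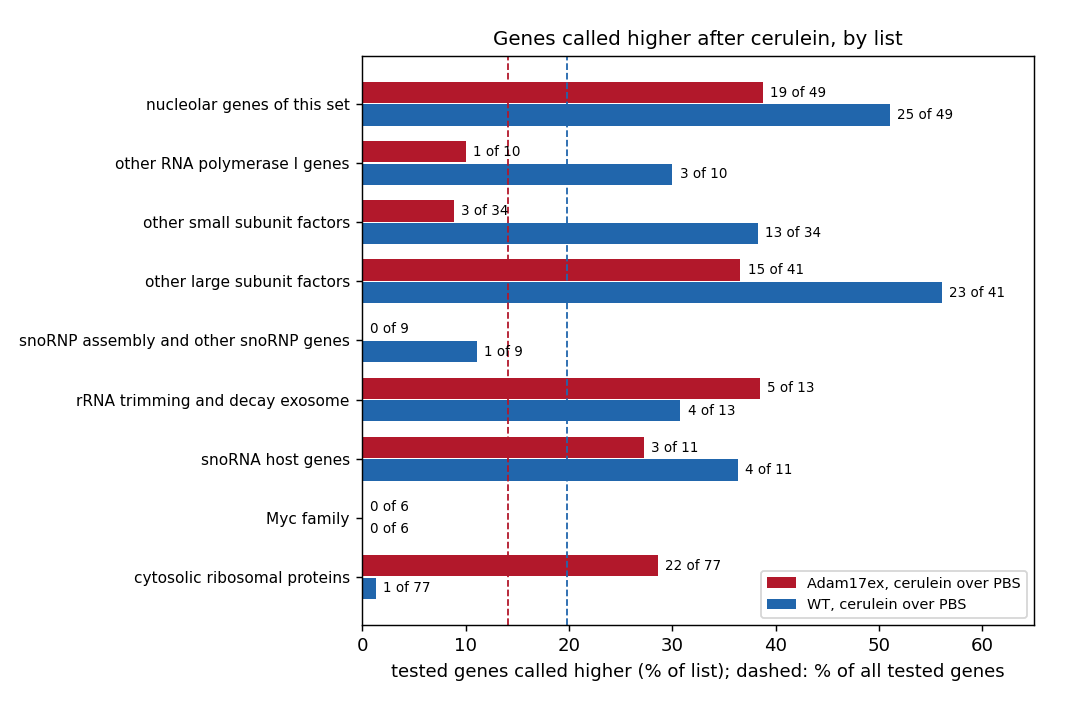
Bars give the share of the tested genes of each list called higher with cerulein (edgeR adjusted p under 0.05), with Adam17ex mice above WT mice, and the counts beside each bar. Dashed lines mark the share over all tested genes, 14.1% in Adam17ex and 19.8% in WT mice. The nucleolar genes reach 19 of 49 in Adam17ex and 25 of 49 in WT mice, and the Myc family 0 of 6 in both.

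Some values are uncertain because of the sequence or place of the gene. In 5 of the 50, the last 400 bases matched another gene of the table at 95% identity or more over at least 200 bases. The copies held 41.3% of the UMIs of Npm1 and its copies together, 63.3% for Nop56, 65.8% for Fbl, 53.5% for Ddx18 and 4.6% for Wdr12. Such reads can be split between a gene and its copies. With each gene summed with its copies, a setting added after the data were seen, 19 genes were higher in Adam17ex and 26 in WT mice. In that setting 14.1% of all tested genes were higher in Adam17ex and 19.7% in WT mice. Npm1 was then at 0.86 ± 0.20 in Adam17ex and 1.12 ± 0.20 in WT mice. Fbl was at 0.64 ± 0.26 in Adam17ex and 0.13 ± 0.22 in WT mice, uncalled in both. Exons of 21 of the 50 genes overlap an exon on the opposite strand in GENCODE M21, among the named ones Polr1a, Mybbp1a, Noc2l, Wdr43 and Nhp2, and whether counting used strand is not given in the sources used here.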

How the data were processed

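Total RNA of frozen pancreas, 30 ng per sample, was made into poly(A)-primed libraries with a sample index of 8 bp and a UMI of 10 bp, and read in the sense direction over 101 bp, per the labels' protocols. The authors deposited whole-number UMI counts per gene and library, not normalized, for 24019 genes. GRCm38/mm10, edgeR 3.36.0, limma 3.50.0 and R 4.1.2 stand in the submitters' processing notes. Not given in the sources used here are the aligner, counter, strand setting and UMI collapsing. All within-group pairs of libraries differed by more than sampling noise, so each counted as 1 replicate. With 1 UMI worth 0.677 to 2.20 CPM, depth limits the low genes.

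From the counts, genes were kept by filterByExpr (minimum count 10, leaving 8236) and tested with edgeR 4.0.16 in R 4.3.3 (TMM factors, glmQLFit and glmQLFTest, 1 coefficient per group plus sex, 16 libraries, 11 residual degrees of freedom). A call is a p under 0.05 after Benjamini-Hochberg adjustment over all tested genes, whatever the fold. Effects are given as log2 fold change ± SE, the interaction is the cerulein effect in Adam17ex minus that in WT, and levels are TMM-scaled CPM. The scripts were tested on simulated counts. DESeq2 1.42.0, limma-voom (limma 3.58.1), other scalings and filters, thinning, left-out libraries and a replicate block were alternatives. Near-identical copies were searched with blastn among GENCODE M21 transcripts, and promoters come from RefSeq.

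Members and lists were chosen with earlier results of these data known, so no test is made over a list. Values per mouse are given for Ncl, Npm1, Fbl, Polr1a, Polr1b and Ubtf, the 3 highest members, up to 8 called members per comparison with the smallest p, and every member called in the interaction. Of each pathway list up to 3 called genes per comparison are named, and Myc. Members named beyond this rule were chosen after their values were seen. Each replicate is taken as 1 mouse, which the labels do not state outright, so p-values measure the spread between these samples. The limit given for a count of 0 covers counting error only.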

Additional observations from a re-analysis of the deposited data

Results flagged for a closer look

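Among 76 sets of 4 libraries examined, for the 18 members with values per mouse and for the summed level of all 50, 4 held a library set apart from the other 3 by Dixon's criterion, where chance flags about 1 set in 20. All 4 were in the WT PBS group. Ncl was at 486.5 CPM in replicate 4, against 303.3 to 315.0 CPM in the other 3 mice. Summed over all 50 genes the same mouse had 2098 CPM, against 1517 to 1589 CPM. In replicate 3, Utp3 was at 44.1 CPM, against 30.6 to 32.8 CPM in the others, and Utp20 at 8.40 CPM, against 12.2 to 12.9 CPM.

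Without WT PBS replicate 4 the median log2 fold change of the members with cerulein in WT mice was 0.99, and without replicate 3 it was 0.89, against 0.83 with all libraries.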

How the results depend on the processing

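Across 30 alternatives, 7 of the 19 calls in Adam17ex, 11 of the 25 in WT and 0 of the 4 between genotypes under cerulein were kept in every one, 1 more in WT mice, Noc4l, was kept in the 27 that tested it, 0 were lost in more than 15 of them, and no called gene changed direction. Thinned to equal depth, 9 genes were higher in Adam17ex, 11 higher in WT mice, and 0 higher and 0 lower between genotypes under cerulein, with fewer genes tested and fewer UMIs. Without the 3 shallow libraries the median log2 fold change was 1.05 for cerulein in Adam17ex, -0.35 for genotype under PBS and 0.43 for the interaction; the cause was not tested. Under PBS, DESeq2 and the fit without sex each called 1 lower. Leaving out each library in turn gave 16 to 22 genes higher in Adam17ex (median 0.62 to 0.81) and 23 to 33 higher in WT mice (median 0.81 to 0.99). Between genotypes it gave 0 to 2 higher and 0 to 3 lower under cerulein (median -0.21 to -0.046), a median of -0.093 to 0.34 under PBS, and for the interaction 0 higher, 0 to 1 lower and a median of -0.24 to 0.10.

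The labels do not say whether replicate numbers link mice of different groups, so no pairing was used. Of 24 same-numbered pairs, 5 correlated above 0.1 (range -0.22 to 0.24), and 6 of 16 libraries correlated best with their own number. Such weak correlations cannot exclude pairing. With the replicate block the counts were unchanged, at 19 higher in Adam17ex and 25 in WT mice, 2 higher and 2 lower between genotypes under cerulein, and 0 under PBS and in the interaction. Scaling by RLE, upper quartiles or without digestive enzymes moved the median of all tested genes by less than 0.1 in every comparison. Genes near 10 CPM rest on few UMIs per library, and at that depth differences such as those of Fbl, Nop2, Rrp9 and Nob1 are poorly determined.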

Other observations

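The proteins of the ribosome itself gave other counts than the factors that build it. Of 77 tested cytosolic ribosomal protein genes, 22 were higher and 0 lower with cerulein in Adam17ex mice (median log2 fold change 0.41), where 14.1% of all tested genes were higher and 16.2% lower. In WT mice 1 was higher and 5 lower (median -0.12), where 19.8% of all tested genes were higher and 21.3% lower. Between Adam17ex PBS and WT PBS mice, 71 of the 77 log2 fold changes were below 0 (median -0.44), and edgeR called 0 higher and 4 lower, against 0.631% and 0.729% of all tested genes. All 4 Adam17ex PBS libraries lay below all 4 WT PBS libraries for 33 of the 77, against 6.24% of all tested genes. That median was -0.28 without the 3 shallow libraries, and 0 were called. Rpl23, a large subunit protein, rose in Adam17ex mice by 0.75 ± 0.18 (edgeR adjusted p = 0.00259), Rpl10 by 0.57 ± 0.16 (edgeR adjusted p = 0.0103) and Rps9 by 0.59 ± 0.17 (edgeR adjusted p = 0.0106). In WT mice Rps2 fell, at -0.94 ± 0.29 (edgeR adjusted p = 0.0129), as did Rpl27a with -0.51 ± 0.15 (edgeR adjusted p = 0.011) and Rpl34 with -1.57 ± 0.45 (edgeR adjusted p = 0.00776). The interaction passed for 6 of the 77, with 5 higher and 1 lower, where 3.75% of all tested genes were higher and 2.27% lower. Without the 3 shallow Adam17ex PBS libraries, in which ribosomal RNA also took its largest shares, the median in Adam17ex mice was 0.16. The calls of ribosomal protein genes in Adam17ex mice and in the interaction were then not kept. Fewer of all tested genes were called in that setting too. Processed pseudogenes of this family are numerous, and single values are uncertain for that reason.

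Among the snoRNA host genes, Gas5 was higher in Adam17ex cerulein than in WT cerulein mice, by 0.98 ± 0.22 (edgeR adjusted p = 0.00586), and Snhg6 was lower, at -1.58 ± 0.29 (edgeR adjusted p = 0.000984).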
